A study of Mus musculus with 6 samples.

Results

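The genes of cholesterol and fatty acid synthesis were chosen by name: 36 genes that encode enzymes of both pathways and the proteins that control them. For mouse RPE/choroid 33924 genes were listed. Of the 36 genes, 34 were found under their current symbol and 1, Msmo1, under its older symbol Sc4mol, which gave 35 genes with a value. Hmgcs1 was not found under its symbol or an older symbol, so its level was not analysed here, and the gene enters only with its position and promoter. The 35 genes were 17 sterol enzymes, 6 genes of sterol control and transport, and 12 fatty acid enzymes. The names were chosen with earlier results of these data known, and no measured value was used to choose them.

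RPE/choroid is the retinal pigment epithelium with the vascular layer beneath it, scraped from the eyecup after the neural retina was taken off. Poly(A) RNA was sequenced from 3 young and 3 aged C57BL/6J mice, all untreated, and each sample held both eyes of 1 mouse. The labels give young mice as 1 to 2 months old and aged mice as 20 to 24 months old (titles) or 22 to 24 months old (age field), and they describe all 6 mice as male, whereas the methods describe young mice that were older than the labels say and mice of both sexes. What could be used was the authors' mean normalized count for each gene over the 6 libraries of both ages, which add up to 40816668. No value for a single library was at hand, so that the level in each mouse, an SD between mice and the depth of each library are unknown, and no difference between young and aged mice was measured here. A gene that was high at 1 age and low at the other would therefore appear at an intermediate level.

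In cholesterol synthesis, acetyl-CoA units are joined to mevalonate, which is turned into isoprenoid units, then into squalene, and finally into a closed sterol ring that is trimmed and rearranged. In fatty acid synthesis, citrate is split to acetyl-CoA, carboxylated to malonyl-CoA and built into palmitate, which elongases lengthen and desaturases provide with double bonds. Both pathways are governed by SREBP transcription factors, which stay in the endoplasmic reticulum with SCAP and INSIG proteins while sterols are plentiful and reach the nucleus when sterols fall. The RPE takes up shed photoreceptor outer segments, which are rich in very long polyunsaturated fatty acids, and passes lipids back to the retina and into the choroid.

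A level is given here on 2 scales, the authors' mean normalized count and that mean per kb of the longest protein-coding transcript in GENCODE (GRCm38). The methods describe TPM values, which are already divided by length, that were turned into normalized counts, and it is not settled whether the deposited means still rise with transcript length. The members were ranked among 15544 genes whose mean normalized count reached 10 and which had an annotated protein-coding transcript. In the 3886 shortest of these genes the median was 738 normalized counts and 558 per kb, and in the 3886 longest it was 1017 normalized counts and 153 per kb. The mean thus differed little with length, and division by length placed long genes such as Acaca and Fasn low. Both scales are therefore given, and an order that differs between them is said to do so.

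The median of all ranked genes was 839.8 normalized counts, or 250.02 per kb, and their 75th percentile was 2180.1 normalized counts, or 724 per kb. Of the 35 members 30 were above the median and 20 were above the 75th percentile per kb, against 32 and 22 by mean normalized count. The median over the members was 3334 normalized counts and 1016 per kb. The 35 members together held 0.311% of the summed mean normalized counts. Mean normalized counts were above 10 in all 35, the lowest being 267 for Dhcr7 and the highest 15716 for Scd2.

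**Figure D1:**
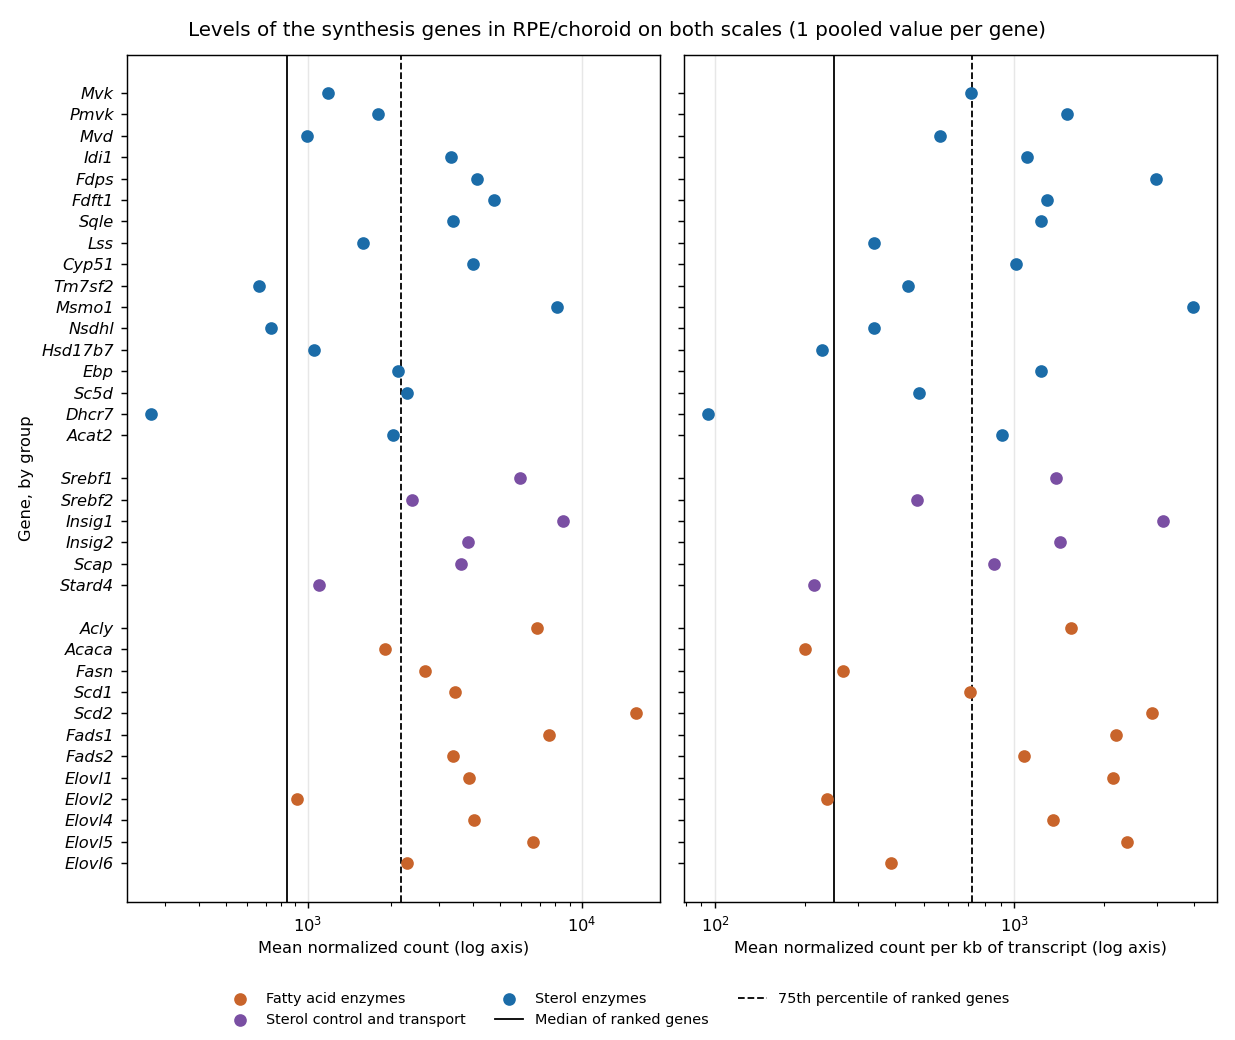
Mean normalized count (left) and mean normalized count per kb of transcript (right), both on log axes, for the 35 members, 1 pooled value per gene over the 6 libraries, coloured by group. Solid lines are the medians of 15544 ranked genes (839.8 and 250.02 per kb) and dashed lines their 75th percentiles (2180.1 and 724 per kb); Dhcr7 is lowest on both scales, at 267 and 94.9 per kb, while the highest is Scd2 on the left (15716) and Msmo1 on the right (3965 per kb).

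Sterol enzymes spanned from 94.9 to 3965 per kb, with a median of 907 per kb. This median was 3.63 times that of all ranked genes, against 2.43 times by mean normalized count. Of the 17 enzymes, 15 were above the median of all ranked genes and 9 were above the 75th percentile per kb, against 14 and 7 by mean normalized count. The highest per kb was Msmo1, a sterol methyl oxidase that takes part in removing methyl groups from the ring. It had 8104 normalized counts on average and a level of 3965 per kb. The lowest was Dhcr7, which reduces 7-dehydrocholesterol in the last step of the route to cholesterol, with 267 normalized counts on average and a level of 94.9 per kb. The level of Msmo1 was 41.8 times that of Dhcr7 per kb, 30.3 times by mean normalized count and 16.5 times with the median length of all annotated transcripts. Both stayed highest and lowest among the sterol enzymes on these scales and with coding length.

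Early steps were measured as follows. Acat2, the cytosolic thiolase that joins acetyl-CoA units, had 2040.4 normalized counts and 907 per kb. Mevalonate kinase (Mvk) had 1187 and 715 per kb, phosphomevalonate kinase (Pmvk) 1796 and 1504 per kb, and mevalonate diphosphate decarboxylase (Mvd) 993 and 565 per kb. Of these 3 enzymes that act on mevalonate, Pmvk was the highest on both scales and lay above the 75th percentile per kb but not by mean normalized count.

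Among the isoprenoid and squalene steps, Idi1, which interconverts the isoprenoid building blocks, had 3334 normalized counts and 1101 per kb. Fdps, the farnesyl diphosphate synthase, had 4119 and 2981 per kb. Squalene synthase (Fdft1) had 4754 and 1286 per kb, and squalene epoxidase (Sqle), an oxygen-dependent step, had 3378 and 1225 per kb. These 4 genes were above all 4 early enzymes by mean normalized count, whereas per kb only Fdps was above Pmvk. Lanosterol synthase (Lss), which closes the ring, had 1584 and 339 per kb. The level of Fdps was 8.78 times that of Lss per kb, 5.40 times with coding length and 2.60 times by mean normalized count, and the level of Fdps is among the less certain ones, since most of its sequence also occurs in other annotated genes.

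Among the steps after ring closure, lanosterol demethylase (Cyp51) had 3995 normalized counts and 1016 per kb and was above the 75th percentile on both scales, as was Msmo1. The sterol isomerase Ebp had 2139 and 1227 per kb, above the 75th percentile per kb and just below it by mean normalized count. Sc5d, which introduces a double bond into the ring, had 2297 and 480 per kb, and the sterol reductase Tm7sf2 had 661 and 441 per kb. Nsdhl, the partner of Msmo1 in demethylation, had 735 and 339 per kb, and Hsd17b7, the keto reductase of the same complex, had 1052 and 228 per kb. Nsdhl was thus above Hsd17b7 per kb and below it by mean normalized count, and both were below Msmo1 on either scale. The sterol enzymes below the median of all ranked genes were Hsd17b7 and Dhcr7 per kb, and Nsdhl, Tm7sf2 and Dhcr7 by mean normalized count.

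The control genes had a median of 1118 per kb together with the sterol carrier Stard4. Insig1, which holds SREBP in the endoplasmic reticulum and is itself a target of SREBP, averaged 8504 normalized counts, or 3153 per kb. Its relative Insig2 had 3832 and 1421 per kb. Srebf1, which encodes SREBP-1, the form that mainly drives fatty acid synthesis, had 5933 and 1380 per kb, and Srebf2, whose product mainly drives sterol synthesis and low-density lipoprotein uptake, had 2396 and 472 per kb. The level of Srebf1 was thus 2.92 times that of Srebf2 per kb. It was 2.48 times by mean normalized count and 6.52 times with median transcript length. The escort protein gene Scap had 3615 and 855 per kb, and Stard4, which carries cholesterol between membranes, had 1093 and 214 per kb. Insig1 was the highest and Stard4 the lowest of the 6 on both scales, but Scap was the highest with median transcript length and Srebf2 the lowest with coding length. Insig1 was 2.22 times Insig2 both per kb of the longest transcript and by mean normalized count, and 0.665 times Insig2 when the median length of all annotated transcripts was used, so the order of both rests on the length chosen.

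**Figure D2:**
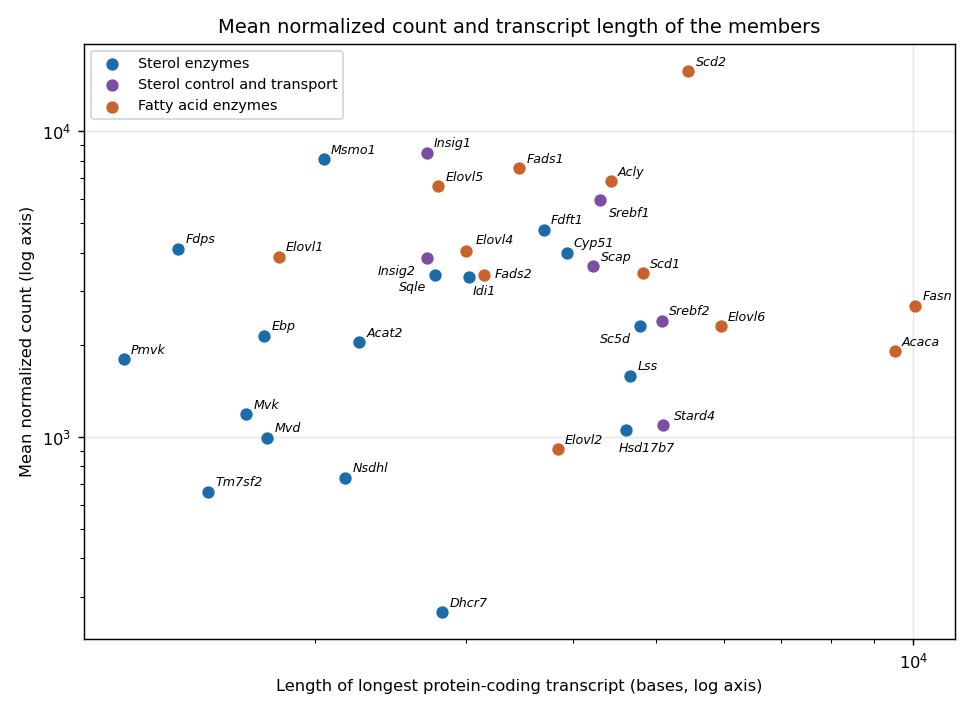
Mean normalized count against the length of the longest protein-coding transcript in bases, both on log axes, for the 35 members, 1 point per gene and coloured by group. Scd2 has the highest mean normalized count (15716), while Acaca (9513 bases) and Fasn (10050 bases) are the longest, which places them at 200.01 and 267 per kb.

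Fatty acid enzymes spanned from 200.01 to 2881 per kb, with a median of 1210 per kb, 4.84 times that of all ranked genes, against 4.35 times by mean normalized count. Of the 12 enzymes, 10 were above the median of all ranked genes and 7 were above the 75th percentile per kb, against 12 and 10 by mean normalized count. The highest on both scales was Scd2, a stearoyl-CoA desaturase that makes monounsaturated fatty acids, while Elovl5 was the highest with median transcript length. The lowest per kb was Acaca, the acetyl-CoA carboxylase that makes malonyl-CoA in the cytosol, whereas Elovl2 was the lowest by mean normalized count and with median transcript length.

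The enzymes that build palmitate were unequal. ATP citrate lyase (Acly), which supplies cytosolic acetyl-CoA, averaged 6844 normalized counts, or 1546 per kb. Acaca had 1903 and 200.01 per kb, and fatty acid synthase (Fasn) had 2683 and 267 per kb. The level of Acly was 7.73 times that of Acaca and 5.79 times that of Fasn per kb. These ratios were 3.60 and 2.55 by mean normalized count, and 2.19 and 1.27 with median transcript length. Fasn and Acaca differed by a ratio of 1.33 per kb.

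Of the 4 desaturases, Scd2 and Fads1 were above the median of the members by a wide margin on both scales. Fads2 lay near that median on both scales, whereas Scd1 lay near it by mean normalized count and below it per kb. Scd2 had 15716 and 2881 per kb and Scd1, the form known from liver and adipose tissue, had 3433 and 710 per kb. The level of Scd2 was 4.06 times that of Scd1 per kb and 4.58 times by mean normalized count, whereas it was 0.901 times with median transcript length. Of the summed mean normalized counts of the 4 Scd genes, Scd2 took 81.8% and Scd1 took 17.9% (79.8% and 19.7% per kb), and Scd3 and Scd4, chosen for the same wider list of pathway genes, took 0.195% and 0.145%. The front-end desaturases Fads1 (delta-5) and Fads2 (delta-6), which introduce double bonds on the way to arachidonic and docosahexaenoic acid, had 7556 and 3386 normalized counts, or 2184 and 1075 per kb. Fads1 was 2.03 times Fads2 per kb and 2.23 times by mean normalized count, and was also higher with each of the other lengths.

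Elongases extend fatty acids by pairs of carbons and differ in the chain lengths on which they act. Elovl5, which extends polyunsaturated chains of medium length, had 6602 and 2373 per kb. Elovl1, which acts on very long saturated chains, had 3877 and 2141 per kb. Elovl4, needed for the very long polyunsaturated chains of photoreceptors and mutated in a dominant macular dystrophy, had 4039 and 1346 per kb. Elovl6, which extends palmitate to stearate, had 2304 and 387 per kb, and Elovl2, which extends polyunsaturated chains towards docosahexaenoic acid, had 911 and 237 per kb. Elovl2 was thus the lowest of the 5 on both scales, and the level of Elovl4 was 5.67 times that of Elovl2 per kb, 4.43 times by mean normalized count and 8.94 times with median transcript length. Shares of the family depended on the scale. Among all 7 Elovl genes Elovl5 took 29.3% of the summed mean normalized counts, Elovl7 (named outside the rule for named genes) 21.2%, Elovl4 18.0%, Elovl1 17.2%, Elovl6 10.2% and Elovl2 4.05%, while Elovl3 took 0.00963%. Of the summed levels per kb, Elovl5 took 30.9%, Elovl1 27.9%, Elovl4 17.5% and Elovl7 15.5%, and with median transcript length Elovl5 took 54.6% and Elovl7 8.19%.

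Some neighbours in the order per kb were separated by little, such as Lss and Nsdhl at 339 per kb each or Sqle and Ebp at 1225 and 1227 per kb. By mean normalized count the same genes lay further apart, Lss and Nsdhl at 1584 and 735 and Sqle and Ebp at 3378 and 2139. Without values per library it is not known which of these differences exceed the spread between mice.

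The other genes of both pathways were taken from a list written with the members. Of 12 other sterol genes, 9 were above the median of all ranked genes on either scale and 1 was above the 75th percentile per kb, against 3 by mean normalized count, and their median was 363 per kb. High members of this list per kb were Mbtps1, the site-1 protease that cleaves SREBP, at 1193 per kb and the oxysterol receptor gene Nr1h2 at 710 per kb. Low members of this list were Idi2 with a mean normalized count of 0.348 and the site-2 protease gene Mbtps2 at 212 per kb. Of 23 other fatty acid genes, 14 were above the median of all ranked genes on either scale and 8 were above the 75th percentile per kb, against 7 by mean normalized count, with a median of 544 per kb. The highest per kb were the dehydratase Hacd3 at 3292 per kb, the ketoacyl reductase Hsd17b12 at 2976 per kb and the enoyl reductase Tecr at 2802 per kb, which act beside the elongases in each round of elongation. The lowest were Elovl3 at 1.15, Scd4 at 8.45 and Scd3 at 10.7 per kb.

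RPE/choroid is a mixture of cells, and fewer cells of a type and less RNA per cell cannot be told apart in it. Of 8 RPE markers 7 were between 4198 and 335233 per kb, whereas Best1, a chloride channel gene often used as an RPE marker, was at 39.3 per kb. The 4 pigment cell markers, which RPE cells also express, lay between 28044 and 116705 per kb. Markers of other tissues were present as well. All of the photoreceptor markers were at or above 523 per kb, and the 5 skeletal muscle markers lay between 8136 and 54081 per kb. Rpe65 was at 45.4 times the level of Elovl4 per kb, 28.2 times by mean normalized count and 16.5 times with coding length. Elovl4 is known to be expressed by photoreceptors, and the part of photoreceptor RNA in its level was not tested. Macrophage markers lay between 1197 and 12659 per kb, choroidal endothelial markers between 179 and 1909 per kb and markers of Schwann cells and myelin between 304 and 2898 per kb. The 4 adipocyte markers, of which Adipoq and Plin1 are the defining ones, lay between 0.915 and 50.7 per kb, all below the median of all ranked genes and below the lowest member, Dhcr7. The 4 adipocyte markers had a summed mean normalized count of 127, and the cells that expressed the fatty acid enzymes were not tested.

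**Figure D3:**
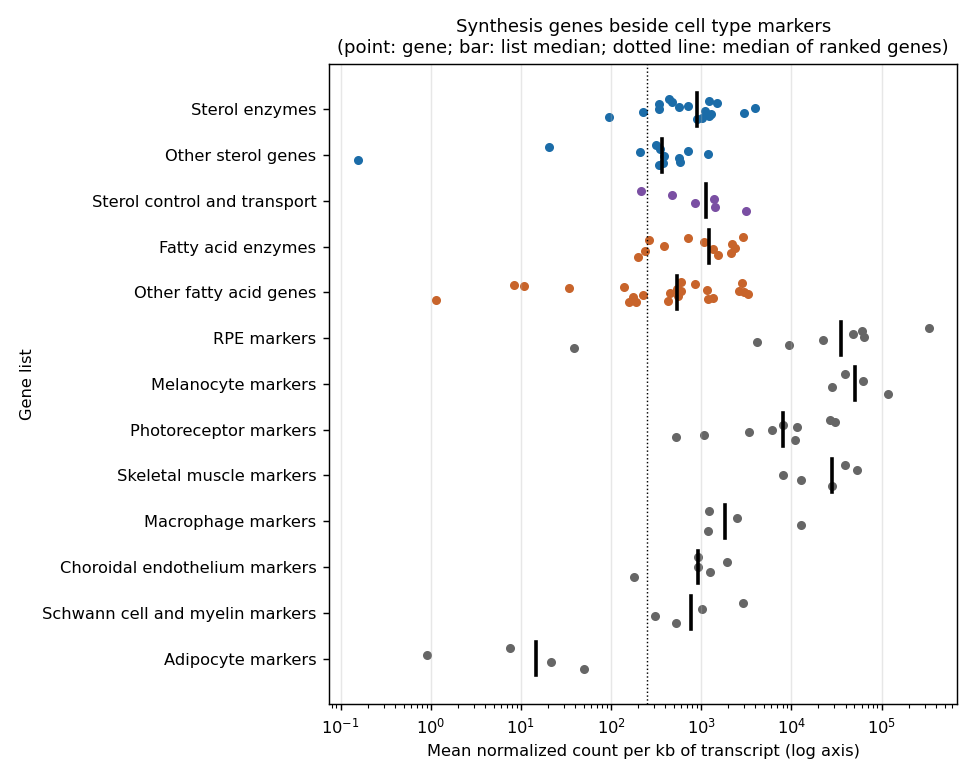
Mean normalized count per kb of transcript on a log axis for the members, the other genes of their pathways and the cell type markers, 1 point per gene, with a bar at the median of each list and a dotted line at the median of all ranked genes. The members lie between 94.9 and 3965 per kb, the adipocyte markers reach at most 50.7 per kb, and most RPE, pigment cell and skeletal muscle markers lie above the members.

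On the genome the 36 members lay on 16 chromosomes, with 2 pairs less than 200 kb apart, both on chromosome 19. In GRCm38, Scd2 (ENSMUSG00000025203) spans chr19:44293674-44306864 on the plus strand and Scd1 (ENSMUSG00000037071) spans chr19:44394455-44407879 on the minus strand, with 87.6 kb between them and Scd4 in that stretch. Fads2 (ENSMUSG00000024665) spans chr19:10062765-10101746 on the minus strand and Fads1 (ENSMUSG00000010663) spans chr19:10182888-10196877 on the plus strand, 81.1 kb apart. In both pairs the genes run in opposite directions and differed in level, Scd2 above Scd1 and Fads1 above Fads2 per kb of the longest transcript and by mean normalized count.

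Reads of some members could be shared with near-identical sequences. Of the 35 members 30 had over 95% of their words of 50 bases in no other annotated gene, Scd1 (95.3%) and Scd2 (96.0%) among them. Fdps had 13.6% and Acaca 47.4%, Acat2 had 54.1% with Acat3 as the gene that shares most, Idi1 had 78.7% and Fdft1 89.1%. The levels of these 5 genes depend on how the authors' quantification divided shared reads and are less certain than the rest.

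Promoter sequences of 29 of the 36 members were given by RefSeq (GRCm38.p6), each from 250 bases before to 50 bases after a start of transcription, and Hmgcs1 is among the 29. The 29 were 15 sterol enzymes, 5 control genes and 9 fatty acid enzymes. Fdps, Fdft1 and Sqle were among the members without a promoter sequence. Sterol regulatory elements and E-boxes are the sites that SREBP proteins are known to bind, and they are shown because the members have this control in common. Only exact matches to the letters searched were counted, so sites with other letters would be missed. A sterol regulatory element, searched as TCACNCCAC on both strands, was found in 1 of the 29 members, against 1.44% of all 27025 genes with a promoter. It lay in the promoter of Hmgcs1, printed here 5′ to 3′ on the plus strand with the motif in capitals.
Hmgcs1, chr13:119690204-119690233: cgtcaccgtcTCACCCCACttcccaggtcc

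The E-box CACGTG, which reads the same on both strands, was found in 7 of the 29 members, against 8.09% of all genes with a promoter and 10.9% of those whose mean normalized count reached 10. The 7 were 3 sterol enzymes, 2 control genes and 2 elongases. They are printed 5′ to 3′ along the gene, on the strand named, with the motif in capitals.
Insig1, chr5:28071299-28071328, plus strand: gctgggtgaggtCACGTGgctccggtggca
Scap, chr9:110333304-110333333, plus strand: cgccgccgggagCACGTGtggagggcggcg
Hsd17b7, chr1:169969331-169969360, minus strand: ggacccttgtgtCACGTGgctccgcccctc
Sc5d, chr9:42264381-42264410, minus strand: ctacgcggcgacCACGTGaccgccgcgacc
Dhcr7, chr7:143823223-143823252, plus strand: cgctgtgatgaaCACGTGgcaaaaagcagc
Elovl4, chr9:83806283-83806312, minus strand: gccccgcgcggcCACGTGatgcgggcgagg
Elovl5, chr9:77917192-77917221, plus strand: actgccccgagaCACGTGaaccacaggaga

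The 7 genes with an E-box included Insig1 at 3153 per kb, the highest of the control genes, and Dhcr7 at 94.9 per kb, the lowest of all members, and both places were the same by mean normalized count. The CCAAT box, to which the SREBP partner NF-Y is known to bind, was found on either strand in 23 of the 29 members, against 41.1% of all genes with a promoter, and in 14 of the 15 sterol enzymes with a promoter. The GC box GGGCGG, to which Sp1 binds, was found in 24 of the 29 members, against 38.2% of all genes with a promoter and 63.7% of those whose mean normalized count reached 10. Both boxes were present in 20 of the 29 members, 13 of them sterol enzymes, against 15.8% of all genes with a promoter. For this pair the share among genes whose mean normalized count reached 10 was not measured, and for the GC box alone that share was the higher one. These matches describe the sequence in the window searched and say nothing of binding in RPE/choroid.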

How the data were processed

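The authors used BBDuk to trim and filter reads, STAR to map them to Ensembl transcripts of GRCm38, Sailfish to quantify transcripts as TPM, the total count method to turn these into normalized counts and DESeq2 to compare the ages. The deposited table holds for each gene a mean normalized count, a signal that the authors averaged over all 6 libraries, and 5 columns of the authors' comparison of the ages (fold change on the log2 scale, its standard error, a test statistic and each p-value before and after adjustment). These 5 columns were not used here, so the age groups were not compared and no test was run. The labels name poly(A) RNA, while their extraction text describes removal of ribosomal RNA and a total RNA kit.

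Because TPM values are already divided by length, and the sources do not say how they became normalized counts, the deposited means are given both as they are and divided by transcript length. If the deposited means already carry the division, values per kb divide by length a further time and place long genes too low. Of 18479 genes with a mean of at least 10, 84.1% had a protein-coding transcript by symbol or older symbol and were ranked. Intervals could not be given, as the depth of single libraries is unknown. The members and lists were chosen with earlier results of these data known. Named genes were all members and, of the other genes of each pathway, the 3 highest and 3 lowest per kb, and genes named beyond these were chosen after their values were seen. Some genes that this rule would name are not reported here. Marker lists were for RPE, photoreceptors, choroidal endothelium, melanocytes, skeletal muscle, Schwann cells and myelin, macrophages and adipocytes. The word count, the motif search and the ranking were tested on simulated sequences and values. Promoter sequences were checked against transcripts of the same gene, and some members had more than 1 promoter. Of the member promoters, 17 of 19 on the plus strand and 17 of 20 on the minus strand matched a transcript as written. The rest matched in neither direction. Python 3.11.15, numpy 2.4.6, pandas 2.3.3, scipy 1.17.1 and matplotlib 3.10.9 were used. The alternatives tried were other transcript lengths, other sets of ranked genes, other motif letters and other promoter sets.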

Additional observations from a re-analysis of the deposited data

How the results depend on the processing

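Each value is a mean over both ages, so its precision is limited by the lack of values per library and of their depth. No paired analysis was possible because only a mean over all samples was used, and for the same reason leaving out a replicate, another normalization and the planned limma test of age were not run. Whether the deposited means are already divided by length is not settled. With median transcript length, coding length or no division (the last chosen after seeing the data for the list medians), the median of the sterol enzymes lay between 2.43 and 3.71 times that of all ranked genes, and that of the fatty acid enzymes between 4.35 and 7.17 times. The number of members above the 75th percentile was 20 to 22 under every set of ranked genes tried and without division by length. The sterol regulatory element, found in 1 member, was found in 0 members with a stricter form of 10 letters and in 0 among genes with a mean of at least 10, since Hmgcs1 has no value here. With median transcript length the ratios of Insig1 to Insig2 and of Scd2 to Scd1 turned to 0.665 and 0.901, the highest control gene became Scap, and the highest and lowest fatty acid enzymes became Elovl5 and Elovl2. With coding length the lowest control gene became Srebf2, and without division the lowest fatty acid enzyme became Elovl2.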
